A study of Mus musculus with 6 samples.

Results

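4-hydroxytamoxifen (4OHT) was set against vehicle in mouse embryonic fibroblasts with the reprogramming factors OSKM, in 2 backgrounds of Adar alleles, and genes were compared across all 3 libraries of each treatment. The members described here are the genes whose 3 values with 4OHT all lay above, or all below, the 3 values with vehicle. They numbered 7349 of 12266 tested genes (59.9%), of which 3751 were higher with 4OHT (30.6%) and 3598 were lower (29.3%). The members were thus chosen on the 4OHT contrast itself, so these counts and the medians of the 2 sets are descriptions without a test.

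Total RNA depleted of ribosomal RNA was sequenced at reprogramming day 7. The vehicle libraries were WT_1 and WT_2, with both Adar alleles floxed (Fl/Fl), and HET, with 1 floxed allele and 1 E861A allele (Fl/E861A). The 4OHT libraries were KO_1 and KO_2 from Fl/Fl cells and MUT from Fl/E861A cells. All 6 share the embryonic fibroblast origin, the OSKM factors and at least 1 floxed Adar allele. The study asked what ADAR1 and its editing activity do for reprogramming; pooling the 2 backgrounds asks what the 4OHT-treated cells have in common. Cells with an intact Adar gene and 4OHT are not among the libraries analysed here, so effects of the drug or of Cre and effects of losing Adar cannot be told apart. Allele background and the source of the cells cannot be told apart either, and the driver of Cre and the number of embryos are not given in the labels. MUT and HET are 1 library each and were assumed to vary like the KO and WT pairs. Whether WT_1 and WT_2, or KO_1 and KO_2, are separate cultures is not given in the labels, and the p-values therefore reflect a spread between libraries that may be technical.

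ADAR1 converts adenosine to inosine in double-stranded RNA and thereby keeps a cell's own transcripts from being read as foreign. Cytosolic sensors of double-stranded RNA switch on interferons and interferon-stimulated genes, and the sensor kinase PKR phosphorylates eIF2 alpha, which raises translation of the transcription factor ATF4. Reprogramming fibroblasts lose mesenchymal and gain epithelial features, divide rapidly and then switch on the pluripotency network. 4OHT binds oestrogen receptors and is the usual inducer of Cre recombinase fused to such a receptor.

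Promoters of 3 groups of genes are shown. These groups moved almost wholly in 1 direction, as did groups not shown, such as replication and MHC class I genes. Sequences are from RefSeq on GRCm38.p6, each a window of 60 bases within the 250 bases before the gene start, written 5′ to 3′ on the strand of the gene. Capitals mark the motif named for each group, on either strand. The first group is induced by ATF4 and CHOP, and the motif is the C/EBP-ATF response element TGATGNAA. It was present in 14 of 49 promoters of tested members (28.6%), against 2.26% of 11564 promoters of tested genes and 3.97% of all 32851 promoters in the table. All such shares count promoter entries, here 49 for 39 genes, so 1 site can count more than once. They also cover bases just after the gene start, which the printed windows leave out.
Chac1 (chr2:119351024-119351083, plus strand): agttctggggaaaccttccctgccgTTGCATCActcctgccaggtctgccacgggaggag
Atf3 (chr1:191183409-191183468, minus strand): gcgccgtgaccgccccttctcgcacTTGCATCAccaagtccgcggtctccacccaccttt
Nupr1 (chr7:126625546-126625605, minus strand): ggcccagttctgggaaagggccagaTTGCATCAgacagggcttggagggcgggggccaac
Slc7a11 (chr3:50443645-50443704, minus strand): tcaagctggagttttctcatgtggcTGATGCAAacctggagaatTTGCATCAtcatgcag
The second group is stimulated by interferon, and the motif is the core of the interferon-stimulated response element, GAAANNGAA. It was present in 29 of 63 promoters of tested members (46.0%), against 6.87% of promoters of tested genes and 8.56% of all promoters.
Isg15 (chr4:156200862-156200921, minus strand): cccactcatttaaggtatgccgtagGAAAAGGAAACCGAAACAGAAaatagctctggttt
Ifit1 (chr19:34640755-34640814, plus strand): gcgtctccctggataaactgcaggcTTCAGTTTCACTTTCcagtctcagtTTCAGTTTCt
Gbp2 (chr3:142620580-142620639, plus strand): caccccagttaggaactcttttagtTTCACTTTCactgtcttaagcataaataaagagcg
Cxcl10 (chr5:92349068-92349127, minus strand): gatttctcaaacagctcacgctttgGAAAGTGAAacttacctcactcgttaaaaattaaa
The third group acts in mitosis, and the motif is the cell cycle homology region TTTGAA. It was present in 25 of 32 promoters of tested members (78.1%), against 11.6% of promoters of tested genes and 17.9% of all promoters. The CCAAT box, which often stands upstream of it, was also present in 25 of these 32 promoters (78.1%), against 37.4% of promoters of tested genes. In promoters of tested replication genes, TTTGAA was present in 6 of 47 (12.8%) and the CCAAT box in 28 of 47 (59.6%).
Cdc20 (chr4:118437344-118437403, minus strand): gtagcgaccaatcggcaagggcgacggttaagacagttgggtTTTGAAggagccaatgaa
Espl1 (chr15:102296233-102296292, plus strand): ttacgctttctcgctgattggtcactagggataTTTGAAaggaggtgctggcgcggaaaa
Mki67 (chr7:135716461-135716520, minus strand): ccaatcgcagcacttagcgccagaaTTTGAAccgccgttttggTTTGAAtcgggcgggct
These windows are examples chosen because they hold the motif. Over the whole sets the shares stood close to those of all tested genes. TGATGNAA was in 2.48% of promoters of the higher and 2.33% of the lower genes, GAAANNGAA in 7.79% and 5.92%, and TTTGAA in 10.3% and 13.7%. A match is a run of letters in the window and does not show that a factor binds there.

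Adar (ENSMUSG00000027951.16, protein-coding, GRCm38 chromosome 3, 89715022 to 89753446, plus strand, GENCODE release M 21) was listed at 19.6 FPKM in WT_1, 19.5 in WT_2 and 17.0 in HET, and at 34.2 in KO_1, 31.3 in KO_2 and 33.0 in MUT. FPKM scale the number of fragments of a gene to its length and to the size of the library. The gene was higher in all 3 libraries with 4OHT (log2 difference 0.78, SE 0.09, limma adjusted p = 0.000128), so its level goes against loss of the whole transcript. A value over the whole gene can miss a deletion of some exons and a point change, so it does not check the labels, and each direction below rests on the libraries as labelled. Rows without a gene name held 8.26% to 10.2% of all FPKM with vehicle and 8.55% to 14.2% with 4OHT, the latter highest in KO_2. Between 11885 and 11922 genes reached 1 FPKM with vehicle and between 11452 and 11561 with 4OHT. In bulk RNA, fewer cells of a type and less RNA per cell cannot be told apart.

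Differences are 4OHT minus vehicle on the log2(FPKM + 1) scale, which understates the change of low genes, from a limma fit with allele background as a term. The median difference was 0.50 over the higher genes and -0.62 over the lower genes, against 0.02 over all tested genes. Lower genes reached further: 1065 of them were at least 2-fold lower by this estimate, against 521 of the higher genes. At 4-fold the numbers were 262 lower and 70 higher, and at 8-fold 68 lower and 8 higher. With 3 libraries against 3, an exact two-sided permutation test of 1 gene cannot give a p below 0.10, so single genes were tested by limma across all 12266 genes. With the threshold at an adjusted p of 0.05 it called 7038 genes (57.4%). Of these 3579 were higher (29.2%) and 3459 lower (28.2%). These are the shares to set beside the called counts of each gene group below. The 2 criteria met in 6422 genes. A further 927 had no overlap without being called, and 616 were called although the groups overlapped. Of those 616, 304 were also called for allele background.

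The median level was 16.0 FPKM for the higher genes, 9.88 for the lower genes and 12.4 for all tested genes. Among genes under 2 FPKM on average, 19.2% were higher without overlap and 40.0% lower. Between 20 and 100 FPKM the shares turned round, with 37.2% higher and 25% lower. By chromosome, the share of higher genes ran from 21.8% of 422 genes on X to 36.8% of 310 on chromosome 18, and X also had the highest share of lower genes, 35.3%. The genomic span of the locus differed little, with medians of 34.7 kb for the higher, 28.1 kb for the lower and 30.9 kb for all tested genes.

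The 2 backgrounds share no library, so they give separate estimates. KO and WT differed at least 2-fold on the log2 scale used in 1727 genes (14.1%), and MUT and HET in 1682 (13.7%). Both thresholds were passed in 1188 genes with the same direction, 365 higher and 823 lower, which is 68.8% of the first list and 70.6% of the second. A single gene, Nt5e, passed both in opposite directions. Across the 12266 genes the Pearson r between the 2 differences was 0.87, given as a description, since genes are not independent replicates.

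**Figure D1:**
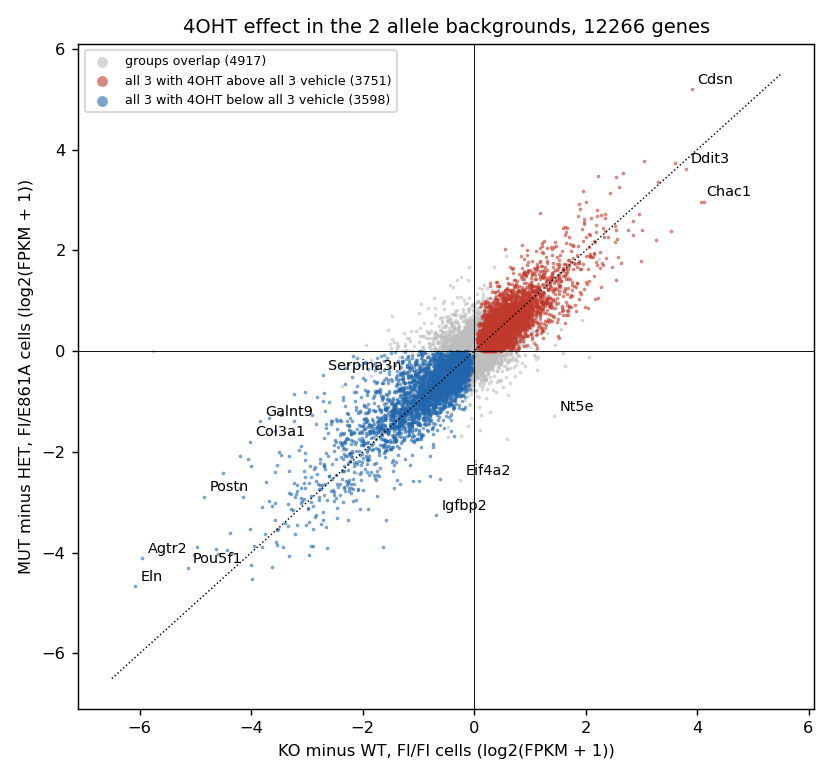
Each point is 1 of 12266 tested genes; the x axis gives KO minus WT and the y axis MUT minus HET, both as log2(FPKM + 1). Red points (3751) had all 3 libraries with 4OHT above all 3 with vehicle, blue points (3598) all below, and grey points overlapped; most points follow the dotted line of equal differences, with Eln and Agtr2 at the lower left and Cdsn at the upper right.

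Genes of the pluripotency network were among the large falls. Pou5f1 (chromosome 17, 35506018 to 35510772, plus strand), which encodes Oct4, stood at 222, 175 and 272 FPKM in WT_1, WT_2 and HET and at 8.03, 2.50 and 12.8 FPKM in KO_1, KO_2 and MUT. The lowest vehicle value was thus far above the highest value with 4OHT (log2 difference -4.86, SE 0.32, adjusted p = 7.43e-06). The values do not separate the introduced factor from the cells' own gene. L1td1, an RNA-binding protein derived from a retrotransposon, went from 72.7, 75.7 and 99.8 FPKM with vehicle to 3.56, 2.0 and 5.28 FPKM with 4OHT. Nr5a2, a nuclear receptor that can stand in for Oct4, went from 8.16, 8.39 and 11.2 FPKM to 0.22, 0.12 and 0.40 FPKM. For these genes HET was the highest library and KO_2 the lowest. Jarid2, a partner of Polycomb repressive complex, fell by 2.73 (SE 0.09, adjusted p = 6.22e-07). Tdgf1, a Nodal co-receptor, Utf1, a chromatin-associated protein of embryonic stem cells, and Tdh, a threonine-degrading enzyme, fell with log2 differences of -4.70, -4.61 and -4.41.

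Of 40 tested pluripotency genes, 35 fell, 2 rose and 3 were not called, and 35 members were lower without overlap. The list's median difference was -2.37, against 0.02 for all tested genes. The members that rose were Klf4 and Klf5, transcription factors of the Krüppel-like family. Klf4, one of the OSKM factors, went from 21.1, 16.5 and 21.3 FPKM with vehicle to 37.5, 34.5 and 51.1 FPKM with 4OHT. Klf5 was called, but its value in MUT, 7.98 FPKM, lay below WT_1 at 9.05 FPKM. The call of Klf5 was lost with no background term (adjusted p = 0.0604). Myc, another OSKM factor, rose by 1.61 (SE 0.12, adjusted p = 1.31e-05), while Sox2 fell by 1.96 (SE 0.16, adjusted p = 2.40e-05).

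**Figure D2:**
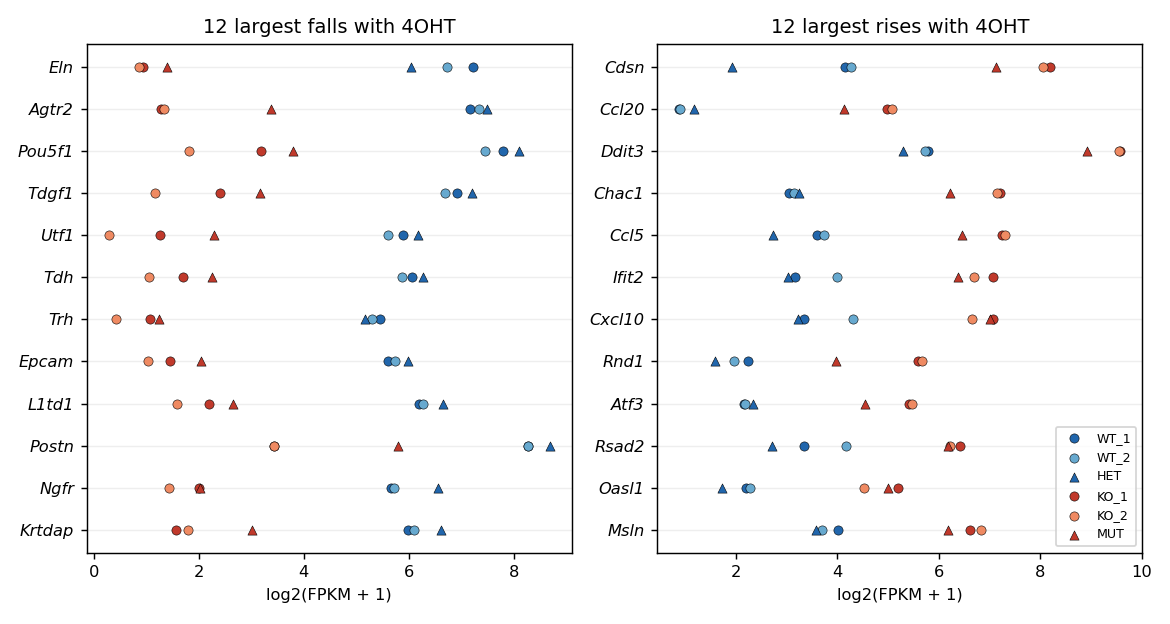
The 12 largest falls (left) and 12 largest rises (right) among called genes without overlap whose mean reached 5 FPKM; the x axis is log2(FPKM + 1). Circles are Fl/Fl libraries and triangles Fl/E861A libraries, blue with vehicle and red with 4OHT; in each gene all red symbols lie on 1 side of all blue symbols.

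Epithelial genes were lower in both backgrounds. Epcam, an epithelial adhesion molecule, stood at 47.9, 52.2 and 62.0 FPKM with vehicle and at 1.72, 1.03 and 3.08 FPKM with 4OHT (log2 difference -4.28, SE 0.14, adjusted p = 6.22e-07). The E-cadherin gene Cdh1 stood at 27.4, 26.3 and 35.7 FPKM with vehicle and at 1.93, 1.42 and 2.44 FPKM with 4OHT. Neither gene came near an overlap. Cldn6, a tight junction protein of early epithelia, fell by 2.75 (SE 0.11, adjusted p = 9.12e-07). Falls were called in 30 of 34 tested members, a rise in 1 and neither in 3, with a median of -1.33. Rises numbered 4 without HET and 4 without MUT. The member that rose was Krt7, a simple-epithelial keratin, from 1.87, 2.34 and 0.75 to 10.8, 9.83 and 6.45 FPKM.

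Genes of cell division were lower throughout. All 36 tested mitosis genes and all 50 tested replication genes were called lower, with medians of -2.01 and -1.27. None of the 36 overlapped, and 49 of the 50 had no overlap. Cdc20, an activator of the anaphase-promoting complex, stood at 98.9, 91.4 and 128 FPKM with vehicle and at 14.4, 13.2 and 25.6 FPKM with 4OHT (log2 difference -2.56, SE 0.11, adjusted p = 1.13e-06). Mki67, the proliferation marker Ki-67, stood at 15.8, 14.9 and 21.9 FPKM with vehicle and at 2.60, 2.3 and 7.13 FPKM with 4OHT. In both genes HET was the highest vehicle library and MUT the highest library with 4OHT. Espl1, the protease that cleaves cohesin, and Kif2c, a microtubule-depolymerising kinesin, fell (log2 differences -2.45 and -2.36). Rrm2, a subunit of ribonucleotide reductase, stood at 127, 143 and 162 FPKM with vehicle and at 25.6, 25.6 and 30.4 FPKM with 4OHT. Mcm5, part of the replicative helicase, and Mcm10, a replication factor, fell (log2 differences -2.16 and -1.95).

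Matrix genes fell in larger number than they rose. Eln (chromosome 5, 134702593 to 134747323, minus strand), which encodes elastin, showed the largest fall of any named gene, from 148, 105.4 and 65.1 FPKM with vehicle to 0.91, 0.81 and 1.61 FPKM with 4OHT (log2 difference -5.61, SE 0.26, adjusted p = 1.75e-06). Postn, a secreted protein that binds collagen, went from 307, 309 and 411 FPKM to 9.73, 9.73 and 54.5 FPKM. The groups were far apart in both, yet MUT kept more Postn than the KO libraries. Col6a2, a chain of type VI collagen, and Col5a3, a chain of type V, fell (log2 differences -2.2 and -2.05). Falls were called in 30 of the 44 tested and rises in 5, with 9 in neither class and a median of -1.01. The 5 that rose were Thbs1, Fbln2, Fbln5, Mfap5 and Fn1. Fn1, which encodes fibronectin, went from 713, 663 and 806 FPKM to 1012, 919 and 1176 FPKM. Thbs1, a matricellular regulator of TGF-beta, went from 349, 346 and 172 FPKM to 833, 825 and 529.8 FPKM. Mfap5 was called with overlapping groups, and the call was lost without WT_2, HET or MUT (adjusted p = 0.0521 to 0.0615).

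Contractile genes and several regulators of mesenchymal identity were higher. Actn1, an actin cross-linker, stood at 118, 112 and 89.1 FPKM with vehicle and at 249.8, 248 and 192 FPKM with 4OHT (log2 difference 1.10, SE 0.08, adjusted p = 1.21e-05). Myh9, a non-muscle myosin heavy chain, rose by 1.03 (SE 0.09, adjusted p = 3.36e-05). Ankrd1, a target of YAP in stretched cells, rose by 1.89. Of 25 tested contractile members, 18 rose, 1 fell (Mylk, which encodes myosin light chain kinase, a call lost without HET at an adjusted p of 0.053) and 6 were not called. Contractile members were thus 72.0% higher and 4.0% lower, against 29.2% and 28.2% over all tested genes. Of 13 tested transcription factors and cadherins of the epithelial-mesenchymal transition, 9 rose (69.2%), 2 fell (15.4%) and 2 were not called. Their median was 0.46. Cdh2, which encodes N-cadherin, went from 30.8, 32.5 and 21.1 FPKM to 70.9, 80.8 and 48.5 FPKM, opposite in direction to Cdh1. Zeb2, a repressor of Cdh1, rose by 1.10. The 2 that fell were Snai1, also a repressor of Cdh1, and Cdh11, a mesenchymal cadherin. The pooled log2 difference of Cdh11 was -0.70, and its effect was more positive in Fl/E861A than in Fl/Fl cells by 0.72. Without WT_1 the adjusted p of Snai1 was 0.0694, and with no filter on low values it was 0.17.

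**Figure D3:**
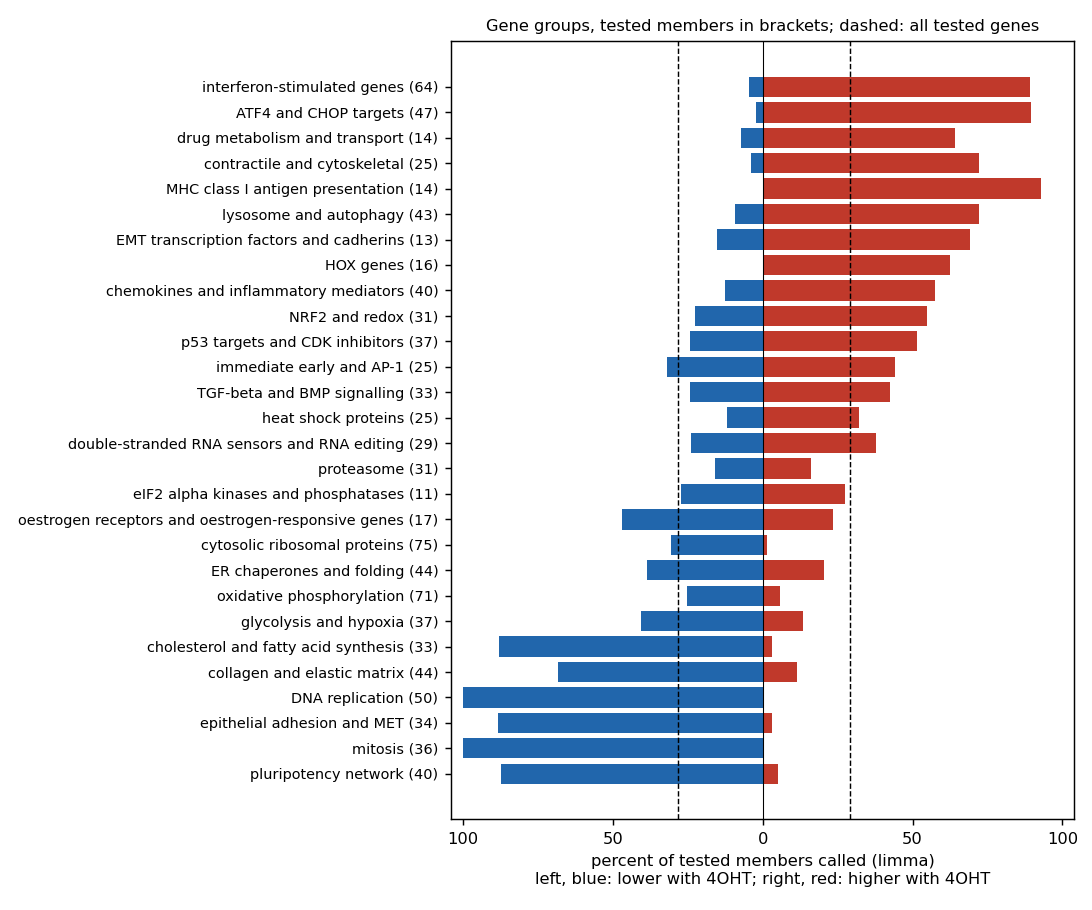
For each gene group with at least 10 tested members (number in brackets), bars give the percent of members called by limma as higher with 4OHT (red, right) and lower (blue, left); dashed lines mark 29.2% and 28.2%, the shares over all tested genes. Groups are ordered by median difference: all members of the mitosis and replication groups were called lower, and 89.4%, 89.1% and 92.9% of the ATF4 and CHOP, interferon-stimulated and MHC class I groups were called higher.

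Targets of ATF4 and CHOP were higher. Ddit3, which encodes CHOP, stood at 54.5, 52.0 and 38.4 FPKM with vehicle and at 761, 743 and 484 FPKM with 4OHT (log2 difference 3.74, SE 0.09, adjusted p = 1.96e-07). Chac1, which degrades glutathione, stood at 7.28, 7.85 and 8.54 FPKM with vehicle and at 146, 140.2 and 73.7 FPKM with 4OHT. Atf3, a stress-induced transcription factor, stood at 3.46, 3.56 and 4.03 FPKM with vehicle and at 41.4, 43.6 and 22.2 FPKM with 4OHT. The groups lay far apart in all 3, with MUT the lowest of the libraries with 4OHT. Nupr1, a stress-induced chromatin protein, stood at 115, 102 and 61.9 FPKM with vehicle and at 475, 501 and 286 FPKM with 4OHT. Slc7a11, the cystine importer, went from 3.07, 3.29 and 1.5 FPKM to 19.96, 20.4 and 12.04 FPKM. Nfil3, a leucine-zipper repressor, rose by 2.3 (SE 0.09, adjusted p = 9.12e-07).

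Of 47 tested targets of ATF4 and CHOP, 42 rose, 1 fell and 4 were not called, with a median of 1.01. The member that fell was Cth, a cysteine-producing enzyme, from 40.7, 43.0 and 65.0 FPKM to 35.9, 37.6 and 28.8 FPKM. Its call was lost without WT_2, HET, KO_1 or MUT (adjusted p = 0.0598 to 0.128) and with a replicate block (adjusted p = 0.0791). Atf4 itself rose by 0.48 (SE 0.11, adjusted p = 0.00554). Of 11 tested eIF2 alpha kinases, phosphatases and exchange factors, 3 rose, 3 fell and 5 were not called. That is 27.3% each way, close to the 29.2% higher and 28.2% lower over all tested genes. The PKR gene Eif2ak2 stood only on a row naming several genes, so it was not tested. Ppp1r15a, a phosphatase subunit that reverses the phosphorylation of eIF2 alpha, went from 20.5, 18.2 and 19.5 FPKM to 78.4, 65.7 and 51.1 FPKM. Eif2ak3, which encodes the endoplasmic reticulum kinase PERK, went from 8.23, 8.55 and 7.95 FPKM to 3.76, 3.84 and 4.65 FPKM, a fall with no overlap.

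Endoplasmic reticulum folding genes did not move as a block. Of 44 tested members, 9 rose (20.5%), 17 fell (38.6%) and 18 were not called, with a median of -0.11. Over all tested genes 29.2% were called higher and 28.2% lower. Hspa5, which encodes the chaperone BiP, went from 279.7, 323 and 247 FPKM to 395, 404 and 346 FPKM (log2 difference 0.43, SE 0.09, adjusted p = 0.00401). Atf6, a membrane-bound sensor of unfolded protein, went from 6.95, 7.31 and 6.99 FPKM to 14.6, 14.6 and 14.0 FPKM. Ero1l, an oxidase that forms disulphide bonds, rose by 1.47, while Ssr2, a subunit of the translocon-associated complex, fell by 1.25. The count of falls was as low as 10 when 1 library was left out. It moved by more than 1.5 times without WT_1 and without KO_1.

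Interferon-stimulated genes were higher in both backgrounds. Isg15, a ubiquitin-like modifier, stood at 321, 293 and 203 FPKM with vehicle and at 962, 1155 and 886 FPKM with 4OHT (log2 difference 1.89, SE 0.12, adjusted p = 5.16e-06). Ifit1, which binds foreign RNA ends, stood at 51.1, 71.0 and 28.4 FPKM with vehicle and at 232, 220.5 and 206 FPKM with 4OHT. HET was the lowest library for both genes. Cxcl10, a chemokine that draws T cells, stood at 9.10, 18.9 and 8.4 FPKM with vehicle and at 133, 100.1 and 128 FPKM with 4OHT. Gbp2, a guanylate-binding protein, went from 13.7, 15.4 and 10.6 FPKM to 71.8, 68.7 and 73.9 FPKM, and the values with 4OHT lay close together. Zbp1, a sensor of left-handed nucleic acid, rose by 2.15 (SE 0.10, adjusted p = 1.49e-06), and Rsad2, which makes a chain-terminating nucleotide, rose by 2.86 (SE 0.24, adjusted p = 2.47e-05).

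Of 64 tested interferon-stimulated genes, 57 rose, 3 fell and 4 were not called, with a median of 1.28. The 3 that fell were Ifitm1, Ifitm2 and Ifi27l2a. Ifitm1 went from 19.7, 12.1 and 11.5 FPKM to 2.45, 1.43 and 2.41 FPKM. Ifitm2, also a membrane protein that blocks viral entry, went from 972, 879 and 979.8 FPKM to 446, 372 and 702 FPKM. Ifi27l2a was called with overlapping groups, from 24.9, 17.6 and 138 FPKM to 2.7, 3.92 and 34.8 FPKM. Its call was lost with no background term (adjusted p = 0.104). Members of the Ifit, Oas, Gbp and Ifitm families can share reads with close copies, and 14 listed genes stood only on rows naming several genes and were not matched.

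Of 14 tested genes of MHC class I antigen presentation, 13 rose and 1 was not called, with a median of 0.68. H2-K1, a classical class I heavy chain, stood at 305, 346 and 220.4 FPKM with vehicle and at 586, 561 and 502 FPKM with 4OHT. Psmb8, a subunit of the immunoproteasome, rose by 1.12 (SE 0.14, adjusted p = 0.000217). Sensors of double-stranded RNA and editing factors were mixed, with 11 of 29 tested called higher, 7 lower and 11 not called. The shares were 37.9% higher and 24.1% lower, against 29.2% and 28.2% over all tested genes. Ifih1, which encodes the sensor MDA5, went from 9.05, 12.4 and 6.15 FPKM to 35.2, 35.5 and 30.7 FPKM. Adarb1, which encodes the editing enzyme ADAR2, went from 2.45, 2.74 and 3.54 FPKM to 0.80, 0.92 and 1.61 FPKM, a fall with no overlap.

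Of 40 tested chemokines and inflammatory mediators, 23 rose, 5 fell and 12 were not called, and the falls numbered 10 without HET and 10 without MUT. The shares with all 6 libraries were 57.5% higher and 12.5% lower, against 29.2% and 28.2% over all tested genes. Ccl20, a chemokine for cells bearing CCR6, was near the floor with vehicle, at 0.85, 0.86 and 1.25 FPKM. With 4OHT it reached 30.4, 32.5 and 16.6 FPKM. Ccl5, a chemokine of antiviral responses, went from 11.1, 12.3 and 5.61 FPKM to 151, 156 and 86.9 FPKM. Ptgs2, the inducible cyclooxygenase, rose by 2.36 (SE 0.08, adjusted p = 7.89e-07). Mmp3, a matrix-degrading protease, moved the other way, from 441, 404 and 327 FPKM to 31.7, 29.2 and 25.4 FPKM. Cxcl12, Cxcl14, Cx3cl1 and Il33 also fell. In Cxcl12, with a pooled log2 difference of -1.47, the effect was more positive in Fl/E861A than in Fl/Fl cells by 1.80. In Cx3cl1 it was more positive there by 1.07. With no filter on low values neither of these differences between backgrounds was called.

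Lipid synthesis and lysosomal genes moved in opposite directions. Of 33 tested genes of cholesterol and fatty acid synthesis, 29 fell, 1 rose and 3 were not called, with a median of -0.79. Elovl6, a fatty acid elongase, stood at 21.6, 23.04 and 22.8 FPKM with vehicle and at 4.44, 5.04 and 5.54 FPKM with 4OHT (log2 difference -1.97, SE 0.09, adjusted p = 1.61e-06). Scd1, a fatty acid desaturase, fell by 1.45. The member that rose was Insig2, which holds the sterol sensor in the endoplasmic reticulum. Of 43 tested lysosomal and autophagy genes, 31 rose, 4 fell and 8 were not called, with a median of 0.55. Sqstm1, the autophagy receptor p62, rose by 2.16 and Ctsl, a lysosomal protease, rose by 1.0. The 4 that fell included Tfeb, a transcription factor of lysosomal genes, from 14.5, 11.4 and 10.5 FPKM to 4.16, 3.10 and 4.36 FPKM.

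Redox genes rose in larger number than they fell, 17 (54.8%) against 7 (22.6%) of 31 tested. Over all tested genes 29.2% were called higher and 28.2% lower. Hmox1, which degrades haem, stood at 131, 116 and 92.7 FPKM with vehicle and at 710.0, 760.4 and 441 FPKM with 4OHT (log2 difference 2.46, SE 0.10, adjusted p = 1.13e-06). The falls included Sod1 and Sod2, the superoxide dismutases. Of 25 heat shock genes, 8 rose, 3 fell and 14 were not called. The share of rises, 32.0%, was close to the 29.2% called higher over all tested genes. Cryab, a small heat shock protein, rose by 1.67 (SE 0.08, adjusted p = 2.25e-06).

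Among 37 tested genes of glycolysis and hypoxia, 15 fell (40.5%), 5 rose (13.5%) and 17 were not called. Over all tested genes 28.2% were called lower and 29.2% higher. Slc2a3, a glucose transporter of pluripotent and neural cells, fell by 3.83 (SE 0.14, adjusted p = 8.62e-07). Most genes of oxidative phosphorylation (49 of 71) and of the cytosolic ribosome (51 of 75) were not called. Lower calls numbered 18 in the first and 23 in the second, 25.4% and 30.7% of members, close to the 28.2% over all tested genes. The first count ran from 11 to 27 and the second from 10 to 24 with 1 library left out. Without KO_1 both moved by more than 1.5 times, and without WT_1 or WT_2 the ribosomal count did. With a replicate block the ribosomal count was 15, and with no background term 13. Rises were rarer than over all tested genes (29.2%), at 5.63% of oxidative phosphorylation and 1.33% of ribosomal members. The ribosomal rise was 1 gene, and with quantile normalization 6. Higher calls in oxidative phosphorylation numbered 4, from 1 without WT_1 to 11 without HET and 10 without MUT. Of 31 proteasome subunits, 5 rose, 5 fell and 21 were not called. That is 16.1% each way, below the shares over all tested genes. The rises numbered 1 without WT_1, 2 without KO_1 or KO_2 and 3 without WT_2. The falls numbered 2 without WT_1, WT_2, HET or MUT and 3 without KO_1.

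Of 37 tested p53 targets and inhibitors of cyclin-dependent kinases, 19 rose, 9 fell and 9 were not called, with a median of 0.32. The shares were 51.4% higher and 24.3% lower, against 29.2% and 28.2% over all tested genes. Cdkn1a, which encodes p21, stood at 299, 276 and 248 FPKM with vehicle and at 479, 514 and 426 FPKM with 4OHT (log2 difference 0.78, SE 0.09, adjusted p = 0.000122). Gadd45b and Gadd45a, growth-arrest proteins, rose by 2.04 and by 1.72. Trp53 itself fell by 0.38 (SE 0.11, adjusted p = 0.0173), a call lost without WT_1 (adjusted p = 0.0715) and without KO_2 (adjusted p = 0.0569). Members of the AP-1 and immediate early group split, 11 higher (44.0%) and 8 lower (32.0%) of 25. Fos went from 106, 98.8 and 144 FPKM to 21.95, 21.6 and 34.8 FPKM, whereas its relative Fosl2 went from 29.0, 27.7 and 28.0 FPKM to 91.9, 87.5 and 80.7 FPKM. Of 33 tested genes of TGF-beta and BMP signalling, 14 rose (42.4%) and 8 fell (24.2%), or 8 and 4 without the background term. Grem1, a BMP antagonist, rose by 2.40, and Tgfbi, a matrix protein induced by TGF-beta, fell by 1.70.

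Because 4OHT is itself an oestrogen receptor ligand, genes of that pathway and of drug handling were listed as well. The receptor Esr1 stood at 0.10 to 0.26 FPKM with vehicle and at 0.27 to 0.41 FPKM with 4OHT, below the level tested. The receptor Esr2 stood at 0.32 to 0.45 FPKM with vehicle and at 0.45 to 0.93 FPKM with 4OHT, also untested. Pgr, a classical oestrogen target, was under 0.10 FPKM in every library. Greb1, another target and also untested, went from 0.68, 0.77 and 1.40 FPKM to 0.08, 0.09 and 0.14 FPKM. Of 17 tested oestrogen-responsive genes, 4 rose (23.5%), 8 fell (47.1%) and 5 were not called. The share of falls was above the 28.2% over all tested genes, and that of rises below the 29.2%. The median was -0.07, with a range that touched 0.00 when 1 library was left out. Mreg, a melanosome transport protein, fell by 2.24 and Gata3, a transcription factor of luminal epithelium, rose by 1.31. Of 14 tested genes of drug metabolism and transport, 9 rose (64.3%), 1 fell (7.14%) and 4 were not called, with a median of 0.85. Ahr, the aryl hydrocarbon receptor, stood at 10.4, 11.03 and 7.90 FPKM with vehicle and at 27.7, 27.6 and 22.5 FPKM with 4OHT. Its targets Cyp1b1, a cytochrome P450, and Ahrr, its repressor, rose by 1.63 (SE 0.09, adjusted p = 3.81e-06) and by 1.34 (SE 0.09, adjusted p = 7.84e-06). The part of the drug in these differences was not tested.

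Markers of other cell types were checked beside these groups. Fibroblast collagen was abundant with vehicle, with Col3a1 at 1054, 953 and 857 FPKM. Summed neural markers were 175, 191 and 213 FPKM with vehicle and 44.2, 57.4 and 51.0 FPKM with 4OHT. All 6 tested members of 14 fell, among them Nefl, a neurofilament chain, by 3.92. Syt1 and Olig2 were under 1 FPKM in every library with 4OHT, and Nefl in KO_1 and KO_2. Those genes met the filter only with their vehicle values, so their falls were partly fixed by it. Macrophage markers summed to 27.7, 23.6 and 46.7 FPKM with vehicle and to 9.46, 7.98 and 16.0 FPKM with 4OHT. Of 4 tested members of 14, 1 was called lower and 1 higher. Laptm5, most of the sum with vehicle, fell by 2.47. Ctss, a lysosomal protease, rose by 0.43 (adjusted p = 0.0229) with overlapping groups, a call lost without WT_1, without KO_1, with no background term and with no filter on low values. Cd14 was not called at 0.29. Ptprc, the pan-leukocyte marker, was under 0.10 FPKM in every library. Endothelial markers ran from 13.7 to 18.1 FPKM in sum with vehicle and from 11.7 to 12.5 FPKM with 4OHT, with Cdh5 under 0.10 FPKM throughout. Their 6 tested members of 11 gave 1 rise and 3 falls.

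Muscle markers summed to 44.1 to 65.7 FPKM with vehicle and 12.7 to 14.9 FPKM with 4OHT. Of 3 tested members of 12, 1 was called lower, 1 higher and 1, Des, was not called. Mylpf, a fast myosin light chain, fell by 3.73 and made most of the difference. Acta1, skeletal actin, went from 5.62, 4.59 and 1.74 FPKM to 8.43, 11.3 and 4.75 FPKM, a rise with overlapping groups (log2 difference 0.91, SE 0.13, adjusted p = 0.000515) whose call was lost with no background term. Myod1 was at 0 in 5 libraries and at 0.02 FPKM in KO_1. Adipocyte markers summed to 40.2 to 71.7 FPKM with vehicle and 22.8 to 36.0 FPKM with 4OHT, with 3 of 5 tested called lower and Cidec at 0 in all libraries. Erythroid markers summed to 0.689 to 0.769 FPKM with vehicle and 0.0605 to 0.43 FPKM with 4OHT, and none was tested. Keratinocyte markers summed to 149, 153 and 185 FPKM with vehicle and to 326, 301 and 158 FPKM with 4OHT, so the groups overlapped. Within that list Krt17, a keratin, stood at 24.8, 36.6 and 38.9 FPKM with vehicle and at 1.74, 1.69 and 2.45 FPKM with 4OHT. Cdsn, an adhesion protein of cornified skin, was the largest rise of any named gene, from 16.8, 18.4 and 2.81 FPKM to 290.4, 263 and 139 FPKM (log2 difference 4.34, SE 0.23, adjusted p = 2.90e-06), whereas Trp63, the regulator of stratified epithelia, stood at 0.41 to 0.58 FPKM with vehicle and 0.04 to 0.26 FPKM with 4OHT. The part of other cell types in the gene groups above was not tested.

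A shared direction does not mean an equal level or an equal size of the effect. Among the 3751 higher genes, MUT lay below both KO libraries in 2446 and above both in 604. HET lay below both WT libraries in 2103 of them and above both in 835. Among the 3598 lower genes, MUT lay above both KO libraries in 2061 and below both in 748, and HET lay above both WT libraries in 2344 and below both in 719. These orders compare levels and not the size of the 4OHT effect. The same orders over all tested genes were not counted. The difference between the 2 effects was tested directly, as MUT minus HET less KO minus WT, with the spread taken from the WT and KO pairs. It was called in 492 genes (4.01%), and was positive in 376 and negative in 116. In 169 of them both effects were falls and the fall was smaller in Fl/E861A cells. In 152 the gene was lower in KO and higher in MUT, each against its own vehicle. Of the 492 genes, 255 had no overlap between all 3 and 3 libraries, 51.8% against 59.9% of all tested genes. These calls depend on the filter: with no filter on low values 578 genes were called, but only 57 of them were among the 492. Without WT_2, 286 genes were called, and without KO_1, 1192.

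Matrix genes made up a visible share of these. Of 44 tested, 23 were called, 22 of them less negative or positive in Fl/E861A cells. Col3a1, a fibrillar collagen chain, stood at 1054, 953 and 857 FPKM with vehicle and at 65.5, 56.0 and 245 FPKM with 4OHT. The fall was 4.03 in Fl/Fl and 1.80 in Fl/E861A cells, a difference of 2.23 (SE 0.19, adjusted p = 0.00049). Postn differed by 1.96 (SE 0.16, adjusted p = 0.000399) and Eln by 1.42 (SE 0.25, adjusted p = 0.0139). Agtr2, the type 2 angiotensin receptor, went from 144, 161 and 178 FPKM with vehicle to 1.42, 1.5 and 9.34 FPKM with 4OHT and differed by 1.84. Serpina3n, a secreted protease inhibitor, stood at 48.9, 41.8 and 43.6 FPKM with vehicle and at 6.23, 5.83 and 31.2 FPKM with 4OHT, a difference of -2.72 in Fl/Fl and -0.47 in Fl/E861A cells. When low genes were not filtered out, the adjusted p of the difference between backgrounds was 0.0898 for Col3a1, 0.35 for Eln, 0.0542 for Agtr2 and 0.0709 for Serpina3n, while Postn was still called.

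Over all tested genes the 4OHT effect was smaller in absolute size in Fl/E861A than in Fl/Fl cells in 48.4% and larger in 51.4%. The difference between the 2 effects was called in 4.01% of all tested genes, the share to set beside the counts here. The effect was smaller in Fl/E861A cells in 39 of 47 tested targets of ATF4 and CHOP (medians 0.79 and 1.12), and the difference was called in 8. Chac1 differed by -1.10 (SE 0.17, adjusted p = 0.00595) and Atf3 by -1.06 (SE 0.17, adjusted p = 0.00866). With no filter on low values Atf3 was still called and Chac1 was not (adjusted p = 0.0701). Among interferon-stimulated genes the effect was larger in Fl/E861A cells in 57 of 64 (medians 1.67 and 1.12), with 10 called, all 10 positive. All 14 MHC class I genes had the larger effect in Fl/E861A cells (medians 1.03 and 0.50), with 2 called. In mitosis genes the effect was smaller in Fl/E861A cells in 35 of 36 (medians -1.64 and -2.21), with 2 called. Among mitosis genes, the call of Mki67 was lost without WT_1, without WT_2, with quantile normalization, with no trend in the fit and with no filter on low values. Most single differences in these groups were not called, and the vehicle level differed too. Summed interferon-stimulated FPKM were 5330, 5170 and 4420 in WT_1, WT_2 and HET and 8630, 8330 and 8830 in KO_1, KO_2 and MUT. HET was the lowest vehicle library, while the 3 sums with 4OHT lay close together.

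**Figure D4:**
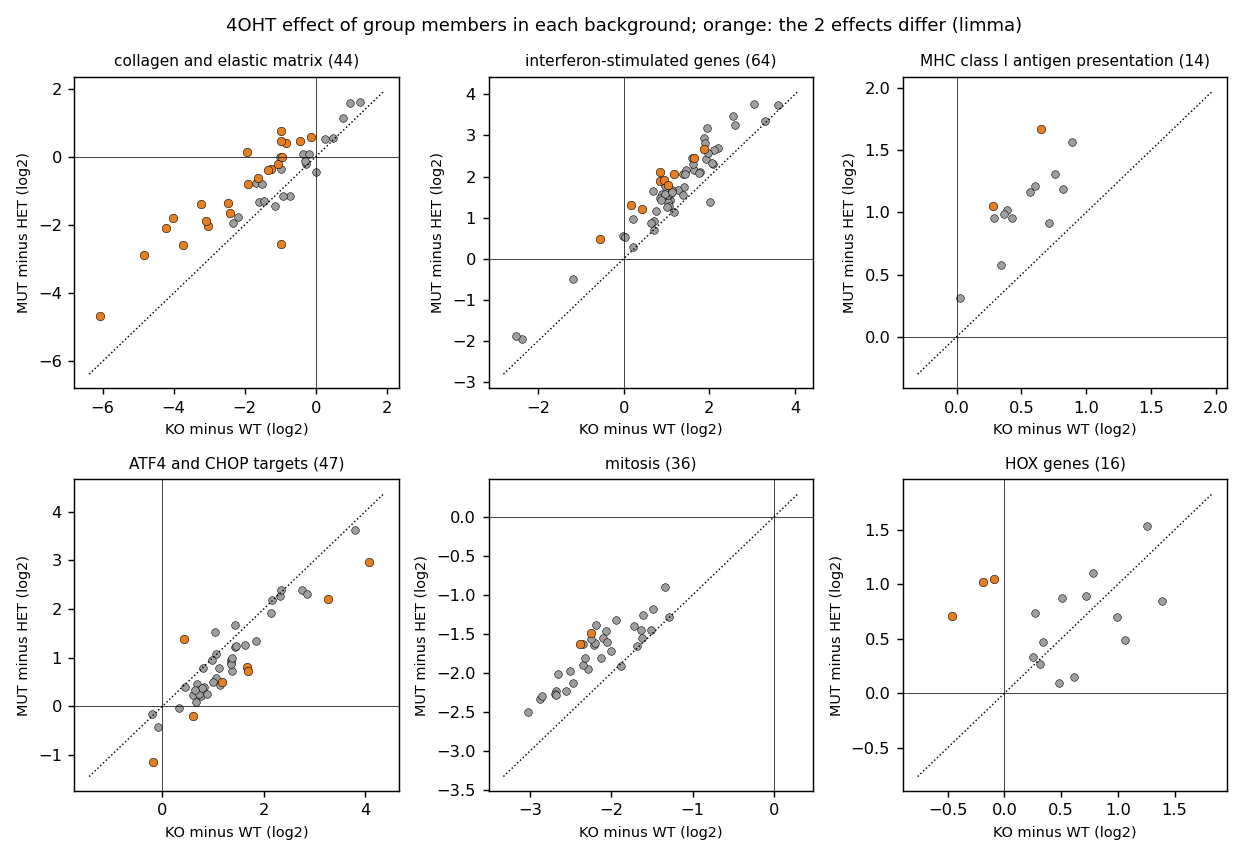
Each panel is 1 gene group, each point 1 tested member; the x axis is KO minus WT and the y axis MUT minus HET on the log2(FPKM + 1) scale, with a dotted line of equal effects. Orange points are genes whose 2 effects differ by limma; matrix, interferon and MHC class I points lie mostly above the line, mitosis points above it with all effects negative, and ATF4 and CHOP points mostly below it.

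The 2 backgrounds also differed in level, with 1241 genes called for allele background (10.1%), 614 higher and 627 lower in Fl/E861A cells. Such a level difference can make groups overlap although both backgrounds moved at least 2-fold the same way, which was so in 13 genes. Dlk1, an imprinted inhibitor of differentiation, stood at 26.9, 24.0 and 146 FPKM with vehicle and at 5.31, 5.0 and 26.5 FPKM with 4OHT. MUT thus lay at the level of WT while HET lay far above it. Tnfrsf11b, which encodes the decoy receptor osteoprotegerin, went from 8.21, 8.52 and 1.62 FPKM to 25.4, 33.8 and 7.84 FPKM. With no background term the 4OHT calls of Dlk1 and Tnfrsf11b were lost (adjusted p = 0.0564 and 0.0587). Slc16a3, a lactate exporter, went from 22.6, 24.5 and 71.7 FPKM to 4.13, 4.18 and 23.5 FPKM. Among 16 tested HOX genes, which set position along the body, 10 were called higher (62.5%), and 3 when the background term was left out. No overlap, all higher, was seen in 3 of 16, against 30.6% of all tested genes. Hoxb9, 1 of the 13 genes at least 2-fold changed in both backgrounds but overlapping, went from 4.56 and 5.16 in WT to 13.1 and 12.9 FPKM in KO, and from 1.03 in HET to 4.89 FPKM in MUT. Its 4OHT call was lost with no background term (adjusted p = 0.055).

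**Figure D5:**
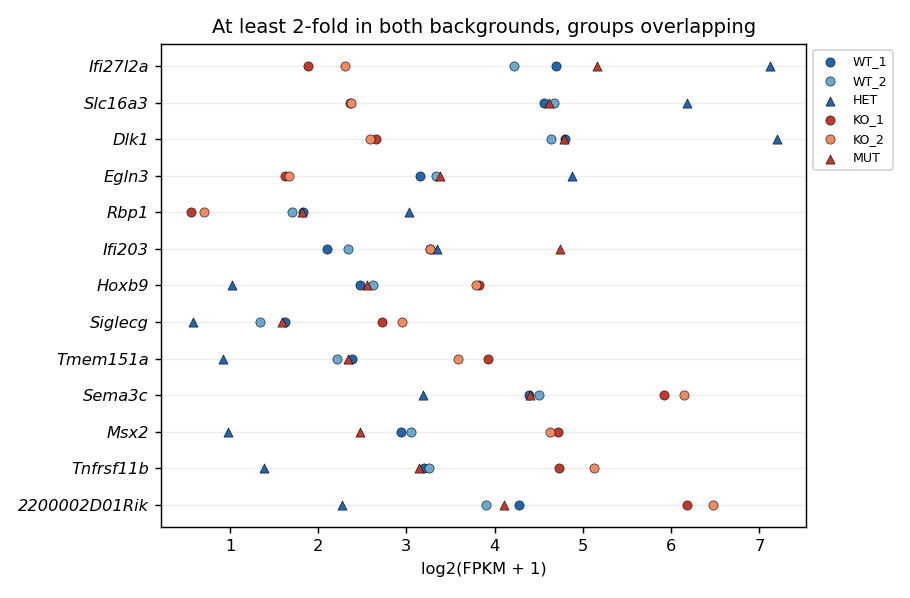
The 13 genes that moved at least 2-fold in the same direction in both backgrounds but whose 3 and 3 libraries overlap; the x axis is log2(FPKM + 1), circles are Fl/Fl and triangles Fl/E861A libraries, blue with vehicle and red with 4OHT. In each gene a triangle lies among or past the circles of the other colour.

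At the edge of the rule the separation was minimal, as seen in the genes nearest to it whose mean reached 5 FPKM. D15Ertd621e lay just inside, with 34.0 FPKM in WT_2 as the highest vehicle value and 34.0 FPKM in KO_1 as the lowest with 4OHT. Cpne3, a calcium-dependent membrane-binding protein, was inside with 22.9 FPKM in both WT_2 and MUT to 3 digits. Just outside were Vps26b, a retromer subunit, with 11.2 FPKM in both WT_1 and MUT, and Wdr33, a polyadenylation factor, with 21.1 FPKM in WT_2 and MUT. Of these 4 genes limma called Cpne3 and Wdr33 and did not call the other two. Without WT_1 neither Cpne3 nor Wdr33 was called (adjusted p = 0.0871 and 0.146). Both calls were also lost without KO_1, without KO_2 and with no filter on low values.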

How the data were processed

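Total RNA, extracted with TRIzol, was freed of ribosomal RNA by Ribo-Zero, per the labels' protocols; titles gave treatment and Adar alleles. Each library's table holds FPKM for every gene, a unit named in the file headers, computed and deposited by the authors and written with decimal commas. Tools named in the submitters' processing notes are TopHat2 2.1.1 and Bowtie2 2.3.0, beside Cufflinks 2.2.1, and the builds are GRCm38 and mm10, all without roles. Gene models, strand settings and scaling were not given in the sources used here. Depth is not stated, and reads from antisense or overlapping genes may be mixed.

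Of 24879 rows, 1021 had no gene name and entered no test. For 314 symbols on several rows the row of highest mean stood for the gene. Of the 23406 symbols left, 528 were rows naming several genes. Genes with at least 1 FPKM in 2 of 6 libraries (12266) entered limma 3.58.1 (R 4.3.3) on the log2(FPKM + 1) scale (trend, two-sided, Benjamini-Hochberg over all tested genes, called under 0.05), with treatment and allele background as terms. The difference between backgrounds used 4 group means. The fit was tested on simulated data. Motifs were searched on both strands of RefSeq promoters on GRCm38.p6.

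The members and gene lists were chosen with earlier results of these data known. Named genes were Adar, the 3 members of smallest p in each list, the 12 largest rises and falls with no overlap and a mean of at least 5 FPKM, the 5 largest differences between backgrounds in each direction, and the 2 genes on each side of the rule's edge. The 131 genes leave out predicted, small RNA, Rik and several-gene rows, and some of them are not reported here; other members, among them Klf4, Sox2, Isg15, Ifit1, Nupr1 and Mki67, were chosen after their values were seen. Alternatives were another pseudocount, filter, scaling and fit, a replicate block and leaving out each library.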

Additional observations from a re-analysis of the deposited data

Results flagged for a closer look

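The size of the 4OHT effect differed between the backgrounds, by limma's test of the difference itself (adjusted p under 0.05), in 19 of the 131 named genes. Values are MUT minus HET less KO minus WT on the log2 scale. Of these genes, 10 were named for this difference, so their number carries no weight. With no filter on low values, 16 of the 19 were no longer called (adjusted p = 0.052 to 0.357), and Postn, Atf3 and Galnt9 still were. Ankrd1 was also lost without WT_1 (adjusted p = 0.0981) and without WT_2 (adjusted p = 0.135).

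Positive differences among genes that were lower with 4OHT were 2.46 for Galnt9, an enzyme of mucin-type glycosylation, 2.40 for Trabd2b, 2.35 for Dnmt3l, a cofactor of DNA methylation, 2.25 for Serpina3n, 2.23 for Col3a1, 1.96 for Postn, 1.84 for Agtr2 and 1.42 for Eln. Galnt9 and Trabd2b began from a lower vehicle level in Fl/E861A cells. Galnt9 stood at 26.8, 26.2 and 2.60 FPKM in WT_1, WT_2 and HET and at 0.88, 0.95 and 0.37 FPKM in KO_1, KO_2 and MUT. Trabd2b, a metalloprotease that restrains WNT proteins, stood at 29.0, 26.9 and 3.21 FPKM with vehicle and at 2.34, 1.82 and 1.35 FPKM with 4OHT. Dnmt3l stood at 24.5, 15.3 and 11 FPKM with vehicle and at 0.80, 0.42 and 3.78 FPKM with 4OHT.

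Among genes that rose with 4OHT, the difference was 1.30 for Cdsn and 0.73 for Ankrd1, and it was -1.06 for Atf3, -1.10 for Chac1, -1.15 for Rnd1 and -1.16 for Ccl20. Rnd1 stood at 3.71, 2.90 and 2.02 FPKM with vehicle and at 47.2, 49.9 and 14.7 FPKM with 4OHT.

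Negative differences among the remaining genes were -2.72 for Nt5e, -2.58 for Igfbp2, -2.30 for Eif4a2, -2.21 for Aldh1a1 and -1.77 for Sfn. Nt5e, the ecto-enzyme CD73 of mesenchymal cells, stood at 6.67, 8.23 and 12.9 FPKM with vehicle and at 21.9, 21.4 and 4.70 FPKM with 4OHT, higher in KO and lower in MUT. Igfbp2, which binds insulin-like growth factors, stood at 86.5, 74.3 and 126 FPKM with vehicle and at 53.2, 46.5 and 12.3 FPKM with 4OHT. Eif4a2, a translation initiation helicase, stood at 859, 585 and 1035 FPKM with vehicle and at 729, 482 and 174 FPKM with 4OHT, so only MUT lay outside the range of the vehicle libraries by a wide margin. Aldh1a1, a retinaldehyde dehydrogenase, stood at 4.31, 5.10 and 12.3 FPKM with vehicle and at 5.72, 3.97 and 1.91 FPKM with 4OHT. Sfn, an epithelial 14-3-3 protein, stood at 95.0, 85.0 and 131 FPKM with vehicle and at 29.1, 29.6 and 11.9 FPKM with 4OHT. Each of these differences rests on 1 library of HET and 1 of MUT, and the cause was not tested.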

How the results depend on the processing

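The number of genes called for 4OHT was 7038 and ran from 5899 to 7083 with 1 library left out. It was 6992 with a pseudocount of 0.1, 5690 with no filter on low values (of 23406 genes, 4937 of them among the 7038), 7090 with quantile normalization (3939 higher and 3151 lower) and 5890 without the background term. The WT and KO libraries share replicate numbers; the deviations of same-numbered libraries correlated at 0.18 across genes, and with only 2 pairs the numbers were not taken as a pairing. With the replicate number as a block, 6732 genes were called (3444 higher and 3288 lower). The difference between backgrounds was called in 286 to 1192 genes with 1 WT or KO library left out (333 without WT_1, 286 without WT_2, 1192 without KO_1 and 904 without KO_2) against 492. With no filter it was called in 578 genes, of which 57 were among the 492. It could not be fitted without HET or MUT. Genes called for allele background numbered 545 to 1699 with 1 library left out and 64 with no filter, against 1241. In the 131 named genes, 2043 of 2086 comparisons with an alternative kept direction and side of the threshold, 25 lost a call and 10 gained one. The 8 that turned round were all in genes not called for 4OHT. Des, at -0.02, was 0.21 with quantile normalization, 0.03 with equal weight of the backgrounds, and ran from -0.14 to 0.02 with 1 library left out (0.00 without WT_1 and without KO_1, 0.02 without WT_2 and without KO_2). Aldh1a1, at -0.71, ran from -1.05 to 0.02, the latter without HET and without MUT, where the value becomes KO minus WT alone. Calls for 4OHT lost with no filter, among genes described above, included those of Atf4 (adjusted p = 0.0617), Klf5 (0.086), Insig2 (0.0652), Cdh11 (0.0769) and Cxcl12 (0.105). Depth is unknown, so no counting error can be given for low genes.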
